A study of Mus musculus with 16 samples.

Results

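Collagen chain genes encode the alpha chains that assemble in threes into the collagens of the extracellular matrix. Members were all array probes, controls left out, whose deposited gene name was Col, a number, the letter a and a number, such as Col1a1. These were 78 probes of 40 genes, out of 27671 gene names on the array. The probe with the highest mean log2 signal over the 16 arrays stood for each gene, and all 78 probes resolved to the same RefSeq symbol as their deposited name. Tests were made for the 31 members whose probe exceeded its local background clearly, by the scanner software's flag, on 4 or more of the 16 arrays. The 9 untested members were Col9a1, Col9a3, Col10a1, Col12a1, Col17a1, Col19a1, Col24a1, Col25a1 and Col28a1, each above background on 3 arrays at most. Of the 31 tested members, 23 were above background on every array.

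RNA came from a ring of left ventricle in mice that carried nitric oxide synthase 3 under the alpha-myosin heavy chain promoter (NOS3-TG, labelled alpha-MHC-NOS3) and in their wild-type littermates (WT). This promoter is active in cardiomyocytes, so it drives the transgene there and not in the fibroblasts and vascular cells that make most cardiac collagen. The 4 groups were NOS3-TG and WT hearts with transverse aortic constriction (TAC) for 10 weeks, an operation that narrows the aorta and loads the left ventricle with pressure, and NOS3-TG and WT hearts that were left intact, called baseline here. Each group had 4 animals, 2 males and 2 females. The line had been backcrossed to C57Bl/6 N for 7 generations, and the labels give the animals as matched for age and weight. The intact hearts had no sham operation in their labels, so the surgery and the pressure load cannot be told apart.

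Values are log2 signals relative to the 75th percentile of the same array, so that 0 marks that percentile and 1 unit is a doubling. Values of a group are given for replicates 1 to 4, of which 1 and 3 are males and 2 and 4 females. Nos3 itself checked the labels, with values of 6.94 to 7.77 in NOS3-TG TAC hearts against 1.51 to 1.85 in WT TAC hearts, and 7.63 to 8.02 in NOS3-TG baseline hearts against 0.96 to 1.45 in WT baseline hearts. The share of probes well above background was 44.5% to 68.0% per array with a median of 52.5%, and NOS3-TG TAC replicates 3 and 4 and NOS3-TG baseline replicate 2 lay farthest from it. TAC arrays filled slides 2 and 3, and baseline arrays filled slides 1 and 4, so condition and slide cannot be told apart, whereas both genotypes and both sexes were on every slide. Each genotype and sex always had the same position on the slide, so neither genotype nor sex can be told apart from position. Cardiomyocyte markers, all 14 above background on every array, had a mean log2 level of 6.73 to 7.35 per array. In this bulk tissue, fewer cells of a type and less RNA per cell cannot be told apart.

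Fibrillar collagens, mainly types I and III, form the load-bearing fibres between cardiomyocytes, and type V chains take part in starting these fibrils. Type IV chains build the basement membrane around cardiomyocytes and capillaries, type VI chains form beaded filaments near it, and type VIII is a short-chain collagen known from vessel walls. Pressure overload is known to bring collagen deposition between cardiomyocytes and around vessels.

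The first question was which chains differed between overloaded and intact hearts in each genotype. In NOS3-TG hearts, 9 of the 31 tested members rose after TAC and 1 fell, beside 11.8% of all 15667 tested genes, 6.48% higher and 5.36% lower, at an adjusted p under 0.05 in limma with Benjamini-Hochberg adjustment over all genes. The median log2 difference of the members was 0.45, and that of all genes was -0.00. In WT hearts, 17 of 31 members rose and 2 fell, beside 28.5% of all genes called, 10.9% higher and 17.6% lower. There the members' median was 0.73, and that of all genes was -0.06. The 10 members called in NOS3-TG hearts were all called in WT hearts with the same direction, 9 were called in WT hearts without passing the test in NOS3-TG hearts, and 12 were called in neither. Whether the change itself differed between genotypes is tested further on. Of the 23 members above background on every array, 9 were called in NOS3-TG hearts and 16 in WT hearts. Without the 3 arrays farthest from the median share above background, none of the members was called in NOS3-TG hearts by limma (12 at an unadjusted p under 0.05, with 2.56% of all genes called). All 3 are NOS3-TG arrays, so 2 TAC and 3 baseline arrays of that genotype were left against all 8 WT arrays, and this count cannot be set beside the WT count. The NOS3-TG count was 6 without NOS3-TG TAC replicate 3 (8.21% of all genes called), 4 without NOS3-TG TAC replicate 4 (6.2%) and 5 without NOS3-TG baseline replicate 4 (7.25%). With scan day as a block, since slide 3 was scanned on another day, the count was 3 in NOS3-TG hearts (4.83% of all genes) and 12 in WT hearts (17.2%). Slide 3 held only TAC arrays, so with this term the TAC level rests on slide 2. An effect of the day cannot be told apart from the less precise estimate that results.

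**Figure D1:**
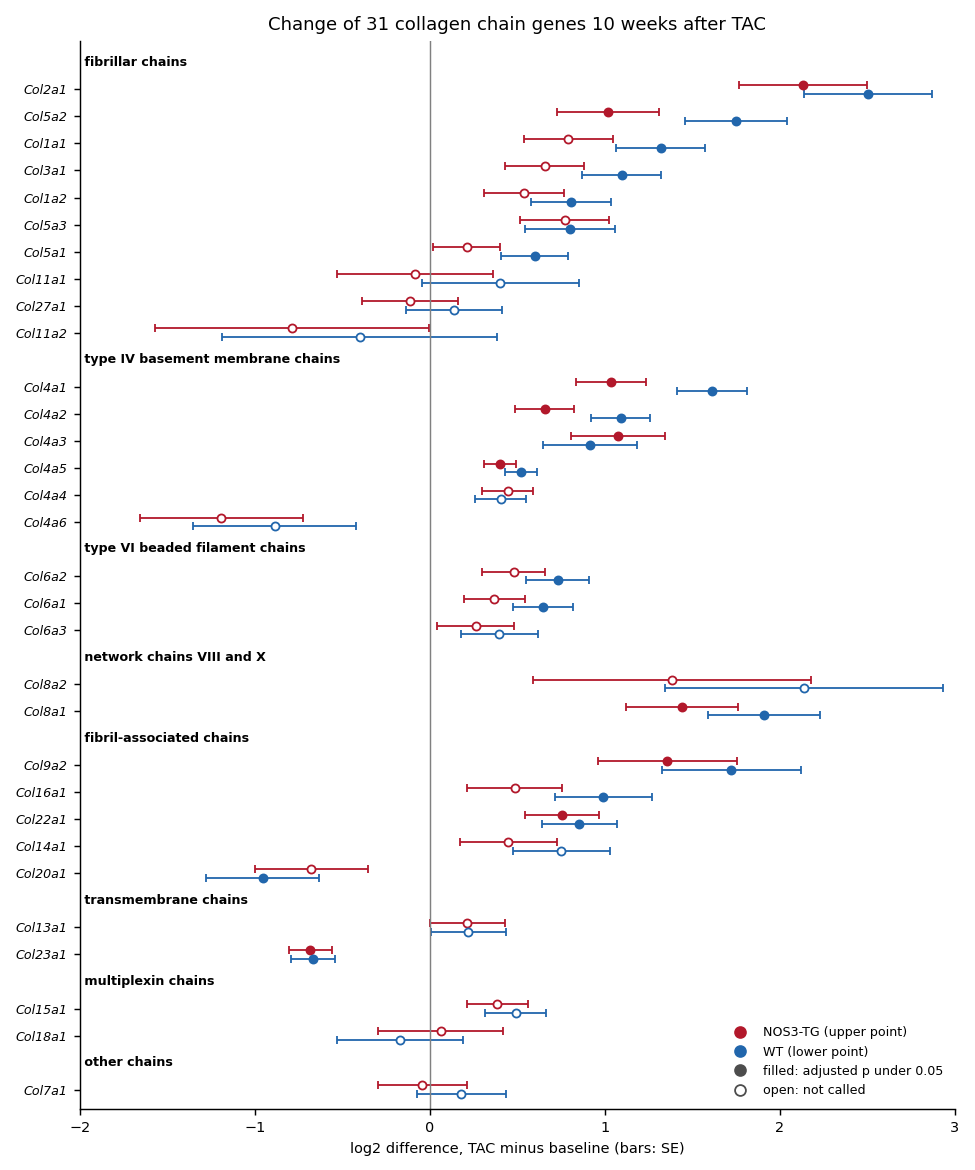
Log2 difference of TAC minus baseline for the 31 tested collagen chain genes, by class, in NOS3-TG hearts (upper point) and WT hearts (lower point). Bars are standard errors from the limma fit of 4 arrays per group, and filled points passed an adjusted p under 0.05. Most points lie to the right of 0, and 17 members in WT hearts and 9 in NOS3-TG hearts are filled on that side.

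Among the 10 tested fibrillar chains, 2 rose in NOS3-TG hearts and 7 in WT hearts, and none fell. Of all genes, 6.48% rose and 5.36% fell in NOS3-TG hearts, and 10.9% rose and 17.6% fell in WT hearts. The counts of the other classes below stand beside the same shares. Col1a1 encodes the alpha 1 chain of type I collagen, the main fibre-forming collagen of the heart. Its log2 signals were 5.02, 4.41, 5.28 and 4.68 in NOS3-TG TAC hearts against 4.57, 4.21, 3.74 and 3.71 in NOS3-TG baseline hearts. In WT they were 5.49, 4.45, 5.15 and 5.52 in TAC hearts against 4.44, 3.78, 3.90 and 3.20 in baseline hearts. All 4 WT TAC hearts lay above all WT baseline hearts, though WT TAC replicate 2 only just exceeded WT baseline replicate 1, and the NOS3-TG groups overlapped. The log2 difference was 0.79 in NOS3-TG hearts (SE 0.25, adjusted p = 0.0613) and 1.32 in WT hearts (SE 0.25, adjusted p = 0.00274), and the WT rise was 2.50-fold. A second Col1a1 probe was above background on every array. Its means were 0.85 after TAC and 0.08 at baseline in NOS3-TG hearts, and 1.30 and -0.20 in WT hearts.

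Col1a2, the alpha 2 chain of type I, had 5.34, 4.78, 5.57 and 5.13 in NOS3-TG TAC hearts against 5.05, 4.88, 4.34 and 4.40 in NOS3-TG baseline hearts. WT TAC hearts had 5.56, 4.96, 5.34 and 5.87 and WT baseline hearts 5.15, 4.56, 4.56 and 4.24. The groups overlapped in both genotypes, since WT TAC replicate 2 lay under WT baseline replicate 1. The difference was 0.54 in NOS3-TG hearts (SE 0.23, adjusted p = 0.144) and 0.81 in WT hearts (SE 0.23, adjusted p = 0.0195), a call lost under 3 of the 16 omissions of an array. Col3a1, the single chain type of collagen III, had 5.64, 4.77, 5.50 and 4.58 in NOS3-TG TAC hearts and 4.95, 4.40, 4.61 and 3.91 in NOS3-TG baseline hearts. Its WT values were 5.62, 4.75, 5.32 and 5.88 after TAC and 4.81, 4.03, 4.58 and 3.77 at baseline. Again 1 WT TAC heart fell within the baseline range. Col3a1 differed by 0.66 in NOS3-TG hearts (SE 0.23, adjusted p = 0.0782) and by 1.10 in WT hearts (SE 0.23, adjusted p = 0.00386). A dimmer Col3a1 probe, above background on 6 arrays, passed in neither genotype. It differed by -0.40 in NOS3-TG hearts (adjusted p = 0.655) and was at least 1.22-fold higher after TAC in WT hearts (adjusted p = 0.0657), where no baseline array was above background.

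The type V chain Col5a2 rose in both genotypes. It had 1.38, 0.50, 1.14 and 0.72 in NOS3-TG TAC hearts against 0.24, 0.08, -0.30 and -0.34 in NOS3-TG baseline hearts. In WT hearts the values were 1.84, 0.40, 1.20 and 2.11 after TAC and -0.31, -0.34, -0.21 and -0.58 at baseline. Neither pair of groups overlapped, and the WT TAC values spread over more than the whole NOS3-TG TAC range. Col5a2 rose by 1.02 in NOS3-TG hearts (SE 0.29, adjusted p = 0.0393) and by 1.75 in WT hearts (SE 0.29, adjusted p = 0.00119). The NOS3-TG call was lost when any of 9 of the 16 arrays was left out, with an adjusted p of up to 0.108, and the WT call under no such omission. The other type V chains passed the test in WT hearts, where Col5a1 rose by 0.60 (adjusted p = 0.033) and Col5a3 by 0.80 (adjusted p = 0.0332), calls that were lost under 5 and 4 of the 16 omissions. In NOS3-TG hearts Col5a1 differed by 0.21 (adjusted p = 0.512) and Col5a3 by 0.77 (adjusted p = 0.068). Col11a1, Col11a2 and Col27a1, fibrillar chains best known from cartilage, passed in neither genotype and ranged from -0.79 to 0.40.

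**Figure D2:**
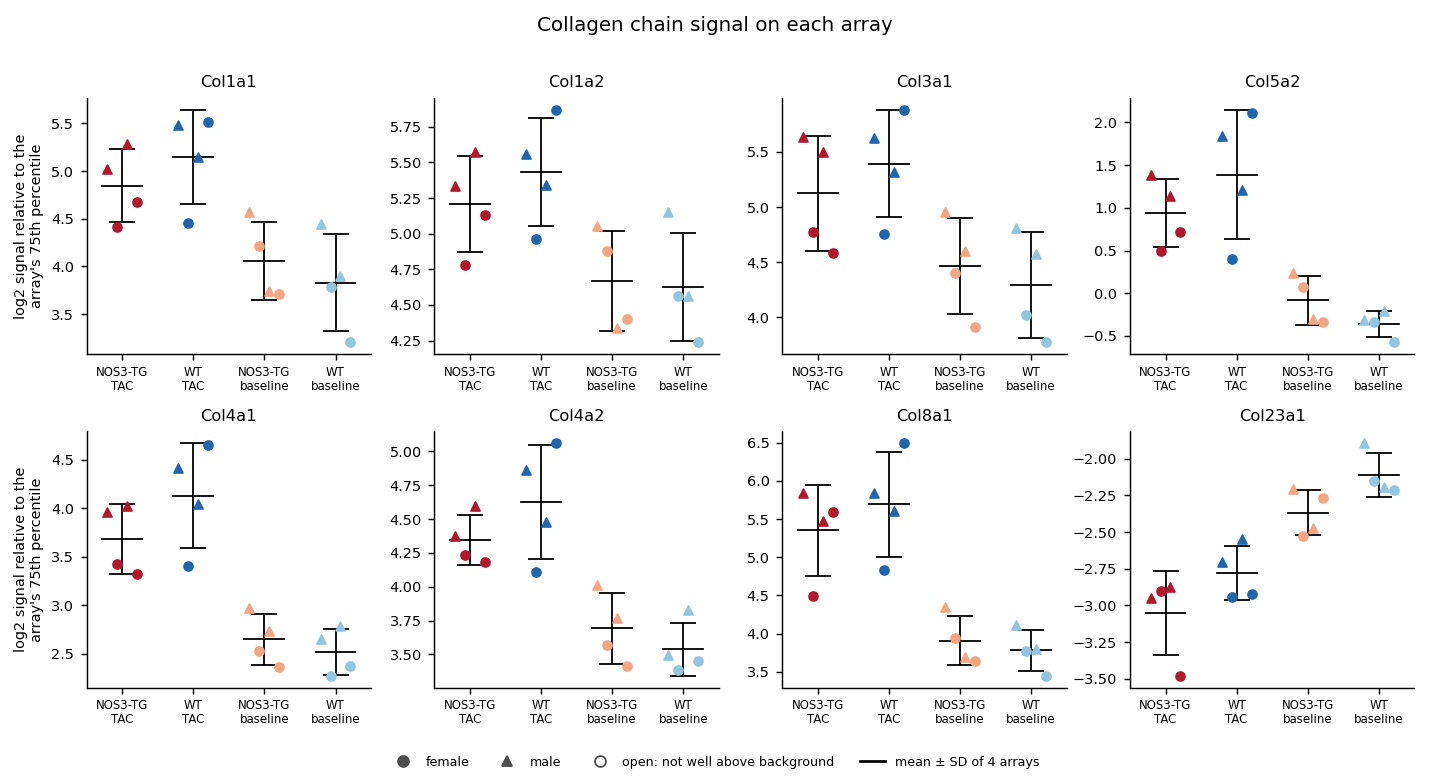
Log2 signal relative to the 75th percentile of the array for 8 chains on each of the 16 arrays, in the order NOS3-TG TAC, WT TAC, NOS3-TG baseline and WT baseline. Circles are females, triangles are males, and lines with bars are the mean ± SD of 4 arrays. Col4a1, Col4a2, Col5a2 and Col8a1 show TAC hearts above all baseline hearts of their genotype, Col1a2 and Col3a1 overlap, and Col23a1 runs the other way.

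Col2a1, the chain of cartilage collagen II, had the largest rise among the called members in both genotypes. Its values were 0.45, -0.41, 1.32 and 0.35 in NOS3-TG TAC hearts against -1.57, -2.06, -1.18 and -2.02 in NOS3-TG baseline hearts. WT hearts had 0.47, -0.43, 0.98 and 1.64 after TAC and -1.61, -2.33, -1.34 and -2.07 at baseline. All TAC hearts were above all baseline hearts, with a rise of 2.13 in NOS3-TG hearts (SE 0.37, adjusted p = 0.00363) and 2.50 in WT hearts (SE 0.37, adjusted p = 0.000588). A second Col2a1 probe, above background on 13 of 16 arrays, did not pass the test in either genotype. It read -3.82, -3.92, -3.15 and -3.14 in NOS3-TG TAC hearts against -4.63, -4.24, -3.49 and -3.30 in NOS3-TG baseline hearts, a difference of 0.41 (adjusted p = 0.448). In WT hearts it read -3.92, -4.35, -3.16 and -3.21 after TAC against -3.52, -3.50, -3.50 and -3.41 at baseline, a difference of -0.18 (adjusted p = 0.726). The rise of Col2a1 is thus a result of 1 probe, which was printed on 10 spots per array, and which of the probes follows the transcript was not tested.

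Markers of cartilage were set beside it. The shares of all genes were 6.48% higher and 5.36% lower in NOS3-TG hearts, and 10.9% and 17.6% in WT hearts. Of 6 tested markers, none rose and 1 fell in NOS3-TG hearts, with a median difference of -1.02 that becomes -0.71 with the 2 genes below background in a group set at their bound, and 1 rose and 1 fell in WT hearts, with medians of -0.07 and 0.09 by these measures. Sox9, the transcription factor of chondrocytes, rose by 1.49 in WT hearts (adjusted p = 0.00492). Cnmd, the cartilage protein chondromodulin, was not well above background on any TAC array, and its signal was at least 2.83-fold lower after TAC in NOS3-TG hearts (adjusted p = 0.00121) and at least 1.96-fold lower in WT hearts (adjusted p = 0.000194).

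**Figure D3:**
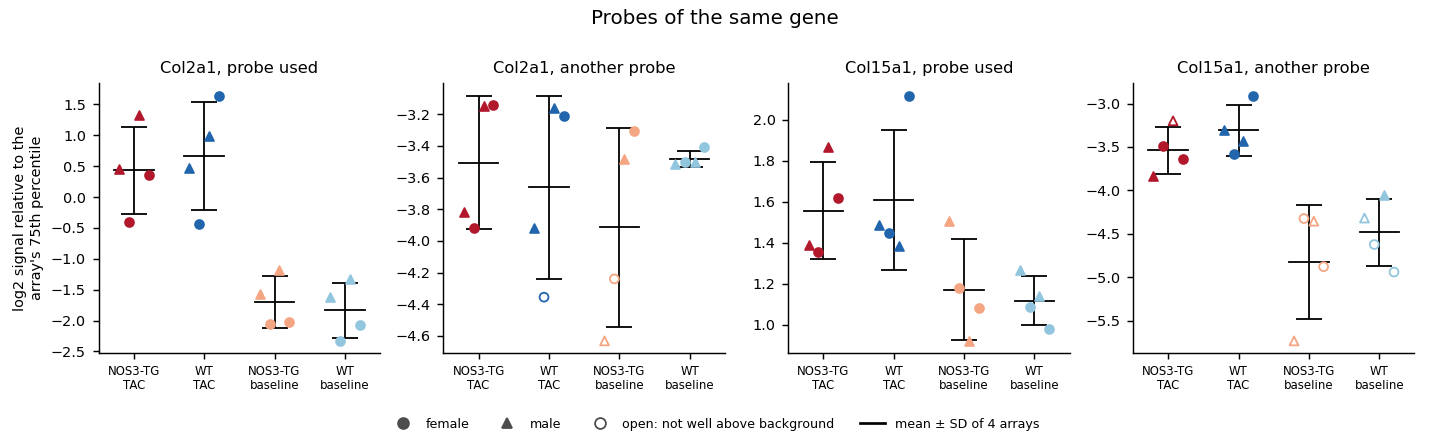
Log2 signal of the Col2a1 probe that stood for the gene, a second Col2a1 probe, and the corresponding pair for Col15a1, on each array in the order NOS3-TG TAC, WT TAC, NOS3-TG baseline and WT baseline. Open symbols were not well above background, and lines with bars are the mean ± SD of 4 arrays. The first Col2a1 probe separates TAC from baseline hearts and the second does not, and the second Col15a1 probe is above background on 7 of 8 TAC arrays against 1 of 8 baseline arrays.

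All 6 type IV chains were tested, and 4 of them, Col4a1, Col4a2, Col4a3 and Col4a5, rose in NOS3-TG and in WT hearts, beside 6.48% and 10.9% of all genes. Col4a1 and Col4a2 together form the basement membrane collagen found in most tissues. Col4a1 had 3.96, 3.43, 4.03 and 3.32 in NOS3-TG TAC hearts against 2.97, 2.53, 2.74 and 2.37 in NOS3-TG baseline hearts. It had 4.41, 3.41, 4.05 and 4.65 in WT TAC hearts against 2.65, 2.27, 2.78 and 2.38 in WT baseline hearts. Every TAC heart lay above every baseline heart of either genotype. The rise was 1.03 in NOS3-TG hearts (SE 0.20, adjusted p = 0.00685) and 1.61 in WT hearts (SE 0.20, adjusted p = 0.000258), which are 2.05-fold and 3.05-fold. Col4a2 had 4.37, 4.24, 4.60 and 4.18 in NOS3-TG TAC hearts against 4.02, 3.57, 3.77 and 3.41 in NOS3-TG baseline hearts. WT hearts had 4.86, 4.11, 4.48 and 5.06 after TAC and 3.50, 3.38, 3.83 and 3.45 at baseline. These groups did not overlap either, and Col4a2 rose by 0.66 in NOS3-TG hearts (SE 0.17, adjusted p = 0.0265) and 1.09 in WT hearts (SE 0.17, adjusted p = 0.000843), with the NOS3-TG call lost under 4 of the 16 omissions.

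The chains Col4a3, Col4a4 and Col4a5 are best known from the kidney's filtration barrier, where their loss causes Alport syndrome in humans. Col4a3 rose by 1.07 in NOS3-TG hearts (SE 0.27, adjusted p = 0.0231) and by 0.92 in WT hearts (SE 0.27, adjusted p = 0.0235), with overlapping groups, and 2 of its 4 NOS3-TG baseline arrays were not well above background. These calls were lost under 4 omissions in NOS3-TG hearts and 5 in WT hearts. Col4a5 had -1.11, -0.97, -0.91 and -0.88 in NOS3-TG TAC hearts against -1.32, -1.34, -1.41 and -1.39 in NOS3-TG baseline hearts. In WT hearts it had -1.07, -1.32, -1.19 and -1.09 after TAC and -1.61, -1.70, -1.52 and -1.93 at baseline. TAC hearts lay above baseline hearts of their genotype without overlap, with rises of 0.40 (SE 0.09, adjusted p = 0.0143) and 0.52 (SE 0.09, adjusted p = 0.00148) in NOS3-TG and WT hearts, the NOS3-TG call being lost under 1 omission. With the probe that stood for it, Col4a4 did not pass in either genotype, with 0.44 in NOS3-TG hearts (adjusted p = 0.0636) and 0.40 in WT hearts (adjusted p = 0.0516). A second Col4a4 probe was above background on every array. Its means were -1.18 after TAC and -1.87 at baseline in NOS3-TG hearts, and -1.13 and -1.65 in WT hearts. Col4a6 was the 1 type IV chain with negative differences, of -1.19 in NOS3-TG hearts (adjusted p = 0.116) and -0.89 in WT hearts (adjusted p = 0.175). A second Col4a6 probe, above background on all 16 arrays, differed by 0.17 in NOS3-TG hearts and -0.07 in WT hearts.

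In the GRCm38.p6 annotation the type IV genes lie in 3 head-to-head pairs, Col4a1 with Col4a2 on chromosome 8 (starts 21 bases apart), Col4a3 with Col4a4 on chromosome 1 and Col4a5 with Col4a6 on chromosome X (starts 1343 bases apart). These starts are those of the transcripts used for the promoter windows. The gene records of the first pair overlap, with a gap of -85 bases, as do those of the second, with -114 bases. Both genes of the first pair rose in both genotypes. In the chromosome X pair Col4a5 rose while Col4a6 had the negative differences given above. Col3a1 and Col5a2 are also neighbours on chromosome 1, 24.6 kb apart with 0 protein-coding genes between them, and both rose in WT hearts.

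The promoters of 5 chains that rose together in WT hearts are printed from RefSeq (GRCm38.p6), because they are the regulatory sequence nearest to the transcripts measured. Each window runs 5′ to 3′ on the strand of the gene, from 250 bases before its annotated start to 50 bases after it. The windows are chr6:4505368-4505667 (+) for Col1a2, chr1:45311288-45311587 (+) for Col3a1, chr8:11312777-11313076 (-) for Col4a1, chr8:11312555-11312854 (+) for Col4a2 and chr16:57754688-57754987 (-) for Col8a1. Capitals mark exact matches to the CCAAT box (CCAAT), the GC box (GGGCGG) and the TATA box (TATAAA), searched on both strands, and no 2 of these motifs contain each other.
Col1a2: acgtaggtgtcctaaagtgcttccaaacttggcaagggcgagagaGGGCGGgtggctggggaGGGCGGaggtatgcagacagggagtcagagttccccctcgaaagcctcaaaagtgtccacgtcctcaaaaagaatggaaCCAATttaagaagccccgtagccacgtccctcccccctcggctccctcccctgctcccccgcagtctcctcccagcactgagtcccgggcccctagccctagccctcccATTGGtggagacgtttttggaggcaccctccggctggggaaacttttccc
Col3a1: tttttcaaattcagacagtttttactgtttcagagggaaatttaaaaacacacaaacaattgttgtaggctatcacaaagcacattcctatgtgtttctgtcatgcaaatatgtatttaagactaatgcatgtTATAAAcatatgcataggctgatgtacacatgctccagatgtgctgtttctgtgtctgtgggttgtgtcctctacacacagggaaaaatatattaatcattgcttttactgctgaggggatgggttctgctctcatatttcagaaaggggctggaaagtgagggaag
Col4a1: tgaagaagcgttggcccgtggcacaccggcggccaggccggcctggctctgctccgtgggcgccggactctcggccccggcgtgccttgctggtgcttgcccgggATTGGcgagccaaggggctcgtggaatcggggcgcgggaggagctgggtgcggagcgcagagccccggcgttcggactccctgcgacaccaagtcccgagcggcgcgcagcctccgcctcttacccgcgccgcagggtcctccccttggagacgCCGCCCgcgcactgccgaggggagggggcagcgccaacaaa
Col4a2: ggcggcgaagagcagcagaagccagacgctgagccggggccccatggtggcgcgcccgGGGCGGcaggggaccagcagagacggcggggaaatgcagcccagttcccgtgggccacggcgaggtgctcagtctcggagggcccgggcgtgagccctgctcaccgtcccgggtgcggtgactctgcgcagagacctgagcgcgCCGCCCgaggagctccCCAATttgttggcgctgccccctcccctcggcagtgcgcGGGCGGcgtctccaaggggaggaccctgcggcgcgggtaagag
Col8a1: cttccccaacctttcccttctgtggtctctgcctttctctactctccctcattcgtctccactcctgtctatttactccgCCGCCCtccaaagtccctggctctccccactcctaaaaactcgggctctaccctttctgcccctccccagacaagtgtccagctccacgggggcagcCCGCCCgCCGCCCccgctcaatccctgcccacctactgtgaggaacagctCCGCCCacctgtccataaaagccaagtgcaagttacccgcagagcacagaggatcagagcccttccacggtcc

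The windows of Col4a1 and Col4a2 share 78 bases, on opposite strands, so that stretch stands in both. Over the 35 windows available for 32 members, 34.3% held a CCAAT box, beside 37.4% of the 32851 windows of the same length for all genes. A GC box was in 57.1% of member windows and 35.7% of all windows, and a TATA box in 14.3% of member windows and 13.6% of all windows. Col1a2 held 2 CCAAT boxes and 2 GC boxes, Col8a1 held 4 GC boxes, and Col3a1 held 1 TATA box without either of the other motifs. A match describes letters in a window, and binding of a factor was not measured.

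Type VI chains form beaded filaments that tie basement membranes to the fibrils around them. In NOS3-TG hearts none of the 3 passed the test, and the differences were 0.37 for Col6a1 (adjusted p = 0.188), 0.48 for Col6a2 (adjusted p = 0.105) and 0.26 for Col6a3 (adjusted p = 0.475). In WT hearts Col6a1 rose by 0.65 (SE 0.17, adjusted p = 0.0151) and Col6a2 by 0.73 (SE 0.18, adjusted p = 0.0103), and Col6a3 differed by 0.40 (adjusted p = 0.197). Col6a2 had 0.86, 0.62, 0.51 and 1.44 in WT TAC hearts against 0.19, 0.08, 0.17 and 0.06 in WT baseline hearts, with replicate 4 well above the other TAC hearts and no overlap. A second Col6a2 probe differed by 0.65 in both genotypes, with adjusted p-values of 0.0496 in NOS3-TG hearts and 0.0277 in WT hearts.

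Col8a1, a chain of the type VIII network collagen, had 5.84, 4.49, 5.47 and 5.60 in NOS3-TG TAC hearts against 4.35, 3.94, 3.69 and 3.65 in NOS3-TG baseline hearts. WT hearts had 5.84, 4.84, 5.60 and 6.49 after TAC and 4.11, 3.77, 3.80 and 3.45 at baseline. In both genotypes every TAC heart exceeded every baseline heart, and replicate 2 was the lowest TAC heart. Col8a1 rose by 1.44 in NOS3-TG hearts (SE 0.32, adjusted p = 0.013) and by 1.91 in WT hearts (SE 0.32, adjusted p = 0.00119), and a second probe rose by 1.74 and 2.04 in these genotypes. Its partner chain Col8a2 had wide spreads and passed in neither, with differences of 1.38 (SE 0.79, adjusted p = 0.279) in NOS3-TG hearts and 2.14 (SE 0.79, adjusted p = 0.06) in WT hearts. Its baseline values reached down to -3.89 in NOS3-TG hearts and -3.56 in WT hearts.

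The fibril-associated collagens sit on the surface of fibrils rather than forming them. Col9a2, which decorates type II fibrils in cartilage, rose by 1.36 in NOS3-TG hearts (SE 0.40, adjusted p = 0.0429) and by 1.72 in WT hearts (SE 0.40, adjusted p = 0.00698). The NOS3-TG call was lost under 11 of the 16 omissions, with an adjusted p of up to 0.113, and the WT call under none. Its values were -1.31, -2.13, -1.43 and -1.19 in NOS3-TG TAC hearts against -2.96, -2.33, -3.45 and -2.75 in NOS3-TG baseline hearts, and -1.64, -2.86, -1.48 and -0.59 in WT TAC hearts against -3.87, -3.16, -3.37 and -3.05 in WT baseline hearts. The groups did not overlap, although WT TAC replicate 2 stood 1 unit or more below the other WT TAC hearts. Col22a1, found at tissue junctions such as that of muscle and tendon, rose by 0.75 in NOS3-TG hearts (SE 0.21, adjusted p = 0.0379) and by 0.85 in WT hearts (SE 0.21, adjusted p = 0.0108), and its second probe rose by 0.82 and 0.85. Its NOS3-TG call was lost under 6 omissions.

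Col16a1 rose by 0.99 in WT hearts (SE 0.28, adjusted p = 0.0209), with WT baseline replicate 2 missing after its spot was marked an outlier, and differed by 0.48 in NOS3-TG hearts (adjusted p = 0.268). Col14a1 missed the threshold in both, with 0.45 in NOS3-TG hearts (adjusted p = 0.318) and 0.75 in WT hearts (adjusted p = 0.0585). The Col16a1 call was lost under 3 omissions. Col20a1 went the other way, with -0.68 in NOS3-TG hearts (adjusted p = 0.191) and a fall by 0.96 in WT hearts (SE 0.32, adjusted p = 0.0417), where 2 of the 4 TAC arrays were not well above background and 8 omissions lost the call.

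Of the membrane-spanning chains, Col23a1 fell in both genotypes. It had -2.95, -2.90, -2.88 and -3.48 in NOS3-TG TAC hearts against -2.20, -2.53, -2.47 and -2.27 in NOS3-TG baseline hearts, and -2.70, -2.94, -2.55 and -2.92 in WT TAC hearts against -1.89, -2.15, -2.19 and -2.21 in WT baseline hearts. All TAC hearts were below all baseline hearts of either genotype. The log2 differences were -0.68 in NOS3-TG hearts (SE 0.12, adjusted p = 0.00476) and -0.67 in WT hearts (SE 0.12, adjusted p = 0.0022), which leave 62.2% and 62.9% of the baseline signal. A second probe gave -0.52 and -0.68 without passing the test. Col13a1, the other tested transmembrane chain, differed by 0.21 in NOS3-TG hearts and 0.22 in WT hearts and was not called.

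Col15a1 and Col18a1 are multiplexins of basement membranes, and Col18a1 is the source of endostatin. Col15a1 differed by 0.39 in NOS3-TG hearts (adjusted p = 0.171) and by 0.49 in WT hearts (adjusted p = 0.0514), where WT TAC replicate 4 at 2.12 stood above the other TAC hearts at 1.39 to 1.48. A dimmer Col15a1 probe passed in both genotypes and was above background on 7 of 8 TAC arrays against 1 of 8 baseline arrays. It was at least 1.27-fold higher after TAC in NOS3-TG hearts (adjusted p = 0.0157), where no baseline array was above background, and rose by 1.17 in WT hearts (adjusted p = 0.0107). Col18a1 differed by 0.06 in NOS3-TG hearts and -0.17 in WT hearts. Col7a1, the chain of skin anchoring fibrils, differed by -0.04 in NOS3-TG hearts and 0.18 in WT hearts, and none of these 3 members was called with the probe that stood for it.

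Groups did not overlap for 9 members that were higher and 1 that was lower after TAC in NOS3-TG hearts, beside 9.18% and 7.46% of all genes. In WT hearts this held for 13 higher and 2 lower members, beside 10.2% and 17.3% of all genes. Among the 17 that rose in WT hearts, WT TAC replicate 4 was the highest TAC heart for 14 and replicate 2 the lowest for 15, and both are females. Of all 1707 genes that rose there, replicate 4 was the highest for 50.3% and replicate 2 the lowest for 62.1%. Among the 9 that rose in NOS3-TG hearts, NOS3-TG TAC replicate 2, also a female, was the lowest TAC heart for 6, as for 40.7% of all 1015 genes that rose. The highest was replicate 1 for 2 of these chains, replicate 3 for 4 and replicate 4 for 3. With another probe of the same gene above background on at least 4 arrays, the direction was the same for 7 of 7 members called in NOS3-TG hearts and 11 of 12 called in WT hearts, the exception being Col2a1, and 4 and 7 of these probes passed the test. Over all 17 such probes, whether or not their gene was called, 7 passed in NOS3-TG hearts and 8 in WT hearts. Of all genes, 11.8% and 28.5% were called.

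Genes whose products make, trim, cross-link, bind or break down collagen were measured beside the chains, from lists chosen with earlier results of these data known. The counts of these lists stand beside 6.48% of all genes higher and 5.36% lower in NOS3-TG hearts, and 10.9% and 17.6% in WT hearts. Of 5 tested cross-linking enzymes, 3 rose in NOS3-TG hearts (median 0.95) and all 5 in WT hearts (median 1.57). Lox, the lysyl oxidase that starts cross-linking, rose by 2.35 in NOS3-TG hearts (SE 0.46, adjusted p = 0.00741), where 1 of 4 baseline arrays was above background. In WT hearts Lox was not well above background on any baseline array, and it was at least 7.55-fold higher after TAC (adjusted p = 0.000204). Loxl3 rose by 1.36 in NOS3-TG hearts and 2.00 in WT hearts, Loxl1 rose by 0.95 and 1.38, and Loxl2 rose by 1.57 in WT hearts.

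Of 17 genes for hydroxylation, folding and glycosylation, 3 rose and 2 fell in NOS3-TG hearts, and 6 rose and 2 fell in WT hearts, with medians of 0.02 and 0.34. P4ha1, a catalytic subunit of prolyl 4-hydroxylase, rose by 0.74 in NOS3-TG hearts and 0.96 in WT hearts, and P3h2, a prolyl 3-hydroxylase, rose by 0.97 and 0.90. Serpinh1, the collagen chaperone HSP47, rose by 0.37 in NOS3-TG hearts (adjusted p = 0.0405) and 0.42 in WT hearts (adjusted p = 0.0105). P3h4 fell by 1.11 in NOS3-TG hearts and by 1.19 in WT hearts, and the chaperone Fkbp10 fell by 0.67 and by 0.75.

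Among 7 procollagen processing genes, 1 rose in NOS3-TG hearts (median 0.33), and 4 rose and 1 fell in WT hearts (median 0.59). Sparc, a collagen-binding matricellular protein, rose by 1.10 in WT hearts, the amino-propeptidase Adamts2 rose by 1.06 there while Adamts3 fell by 0.64, and Pcolce2 rose by 0.51 in NOS3-TG hearts and 0.68 in WT hearts. Of 7 collagen receptors, 2 rose in NOS3-TG hearts (median 0.34) and 5 in WT hearts (median 0.55). The integrin chain Itga11 rose by 0.86 in NOS3-TG hearts and 0.93 in WT hearts, Itga1 rose by 0.62 and 0.55, the uptake receptor Mrc2 rose by 0.98 in WT hearts and Lair1 by 0.76 there. Of 10 proteases and inhibitors, 2 rose and 1 fell in NOS3-TG hearts (median -0.00) and 3 rose in WT hearts (median 0.28). Mmp14, a membrane-bound collagenase, rose by 0.85 in NOS3-TG hearts and 0.99 in WT hearts, the protease Ctsk rose by 0.61 and the inhibitor Timp3 fell by 0.67 in NOS3-TG hearts, and Timp1 rose by 2.14 and Mmp2 by 0.63 in WT hearts. Of 7 fibril-binding proteoglycans, 1 rose in NOS3-TG hearts (median 0.10), and 2 rose and 1 fell in WT hearts (median 0.21). Aspn rose by 0.66 in NOS3-TG hearts and 1.04 in WT hearts, Bgn rose by 1.50 in WT hearts, and Ogn fell by 0.81 there.

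Markers of the cell types in the tissue were read from the same arrays. Their counts stand beside 6.48% of all genes higher and 5.36% lower in NOS3-TG hearts, and 10.9% and 17.6% in WT hearts. Of 15 fibroblast markers, 4 rose and 1 fell in NOS3-TG hearts, and 7 rose and 1 fell in WT hearts, with medians of 0.11 and 0.40. Their mean log2 level ranged from 1.60 to 2.41 in NOS3-TG TAC hearts against 1.31 to 1.81 in NOS3-TG baseline hearts, and from 2.01 to 2.60 in WT TAC hearts against 1.24 to 1.79 in WT baseline hearts. Postn, the periostin gene of activated fibroblasts, rose by 1.67 in NOS3-TG hearts (adjusted p = 0.0402) and 2.46 in WT hearts (adjusted p = 0.00298). Meox1 rose by 1.80 and 2.22 in NOS3-TG and WT hearts, Mfap4 by 1.63 and 2.10, and Tnc by 2.40 in WT hearts, and Scara5 fell by 1.42 in NOS3-TG hearts. The marker that fell in WT hearts is not named because only the 4 largest called are. The lowest difference of the list in WT hearts was -1.61, so falls were not particular to NOS3-TG hearts. Of 12 macrophage markers, 2 rose in NOS3-TG hearts (median -0.04) and 7 in WT hearts (median 0.46), led by Cx3cr1 (1.22 and 1.71) and Adgre1 (0.43 and 0.74), with Fcgr1 at 0.66 and C1qc at 0.53 in WT hearts. Their mean level was 0.87 to 1.48 in NOS3-TG TAC hearts against 0.96 to 1.12 in NOS3-TG baseline hearts, and 0.55 to 1.21 in WT TAC hearts against 0.28 to 0.56 in WT baseline hearts. Of 12 endothelial markers, 1 rose in NOS3-TG hearts (median 0.16) and 4 in WT hearts (median 0.30), namely Tek (0.27 in NOS3-TG and 0.30 in WT hearts), Pecam1 (0.47), Cdh5 (0.44) and Tie1 (0.39), and their mean level was 2.59 to 2.77 in NOS3-TG TAC hearts against 2.34 to 2.66 in NOS3-TG baseline hearts, and 2.83 to 3.01 in WT TAC hearts against 2.64 to 2.78 in WT baseline hearts.

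Among the 12 markers of mural cells, meaning smooth muscle and pericytes, each genotype had 2 that rose and 3 that fell (medians -0.31 in NOS3-TG and -0.30 in WT hearts). Acta2 was up by 1.30 in NOS3-TG hearts and 0.87 in WT hearts, and Des was up by 0.68 in NOS3-TG hearts. Lmod1 (-1.31 and -1.11), Myh11 (-1.12 and -1.07) and, in WT hearts, Abcc9 (-0.98) were down. Only the 4 largest called in each genotype are named, so a riser in WT hearts and a faller in NOS3-TG hearts are not. None of 14 cardiomyocyte markers was called in NOS3-TG hearts by limma (3 at an unadjusted p under 0.05, beside 4353 of all 15667 genes). In WT hearts 2 fell, Ryr2 by 0.66 and Ckm by 0.44. The medians were -0.10 in NOS3-TG hearts and -0.23 in WT hearts. Of all genes, 17.6% fell in WT hearts, a share that these markers did not exceed. The part of these cell types in the change of the collagen chains was not tested.

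The next comparison set NOS3-TG against WT hearts after TAC. None of the 31 members was called by limma (3 at an unadjusted p under 0.05), beside 0.281% of all genes, 0.255% higher and 0.0255% lower. An unadjusted p under 0.05 was found for 1922 of all 15667 genes. The members' median was -0.25, with 27 of 31 below 0, while the median of all genes was 0.01, with 8098 of 15667 above 0. All chains were read from the same animals, so their signs are not independent. For the same comparison the fibroblast markers had a median of -0.28 with 13 of 15 below 0. The endothelial markers had -0.23 with 11 of 12 below 0 and 6 at an unadjusted p under 0.05. Mural cell markers had -0.21 with 2 of 12 above 0, cardiomyocyte markers -0.07 with 2 of 14 above 0 and cartilage markers -0.83 with 1 of 6 above 0. Macrophage markers went the other way, with 0.14 and 10 of 12 above 0. No marker of these lists was called, and their part in the result was not tested. Col4a1 differed by -0.45 with a 95% interval of -0.88 to -0.02 (adjusted p = 0.387), Col23a1 differed by -0.27 (interval -0.54 to -0.01, adjusted p = 0.397) and Col4a5 by 0.20 (interval 0.01 to 0.40, adjusted p = 0.382). Differences of the main fibrillar and network chains were -0.30 for Col1a1 (interval -0.85 to 0.24), -0.23 for Col1a2 (interval -0.72 to 0.26), -0.27 for Col3a1 (interval -0.76 to 0.22), -0.28 for Col4a2 (interval -0.65 to 0.09) and -0.34 for Col8a1 (interval -1.03 to 0.35). These intervals reach from a signal in NOS3-TG hearts well below that of WT hearts to one slightly above it, so the data do not show that the levels were equal.

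WT TAC replicate 4, which had the highest signal of most risen chains, weighed on this comparison. Without it the difference was 0.019 for Col3a1, 0.0058 for Col8a1, -0.09 for Col1a1, -0.02 for Col1a2, -0.18 for Col4a1 and -0.08 for Col4a2. Within slides, the median over the members of NOS3-TG minus WT was -0.20 on slide 2 and -0.28 on slide 3, with 24 of 31 members lower on each. Col14a1 was the 1 member without overlap here, lower in all NOS3-TG TAC hearts with a difference of -0.46 (adjusted p = 0.549), and 3.6% of all genes were higher and 1.95% lower without overlap. Lox differed by -1.18 (adjusted p = 0.314), Postn by -0.49 (adjusted p = 0.768) and Serpinh1 by -0.18 (adjusted p = 0.533).

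At baseline, NOS3-TG against WT hearts gave no called member in limma (2 at an unadjusted p under 0.05), beside 0.415% of all genes, 0.332% higher and 0.083% lower. An unadjusted p under 0.05 was found for 1927 of all 15667 genes. The median of the members was 0.05 and that of all genes -0.06, with 5668 of all 15667 genes above 0. Col4a5 had the smallest p, with -1.32, -1.34, -1.41 and -1.39 in NOS3-TG hearts against -1.61, -1.70, -1.52 and -1.93 in WT hearts, values that did not overlap, as for 3.89% of all genes in this direction and 6.06% in the other. Its difference was 0.32 (SE 0.09, interval 0.13 to 0.52, adjusted p = 0.157). Col22a1 differed by 0.47 (adjusted p = 0.402) and Col23a1 by -0.26 (adjusted p = 0.42). For the main chains the differences were 0.23 for Col1a1 (interval -0.32 to 0.78), 0.04 for Col1a2, 0.17 for Col3a1, 0.13 for Col4a1, 0.15 for Col4a2 and 0.13 for Col8a1 (interval -0.56 to 0.82), all within the spread between animals. Within slides the members' median was 0.12 on slide 1 and -0.03 on slide 4. Lox differed by 0.41, Postn by 0.30 and Serpinh1 by -0.13, with no call among the fibroblast markers (median 0.10). The macrophage markers had a median of 0.64, all 12 were above 0, 9 did not overlap, 10 had an unadjusted p under 0.05, and 2 passed the test. Endothelial markers had a median of -0.14 with 2 of 12 above 0, and mural cell markers -0.22 with 1 of 12 above 0. Cardiomyocyte markers had -0.15 with 1 of 14 above 0, and cartilage markers 0.15 with 5 of 6 above 0. None of these last 4 lists held a called marker.

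**Figure D4:**
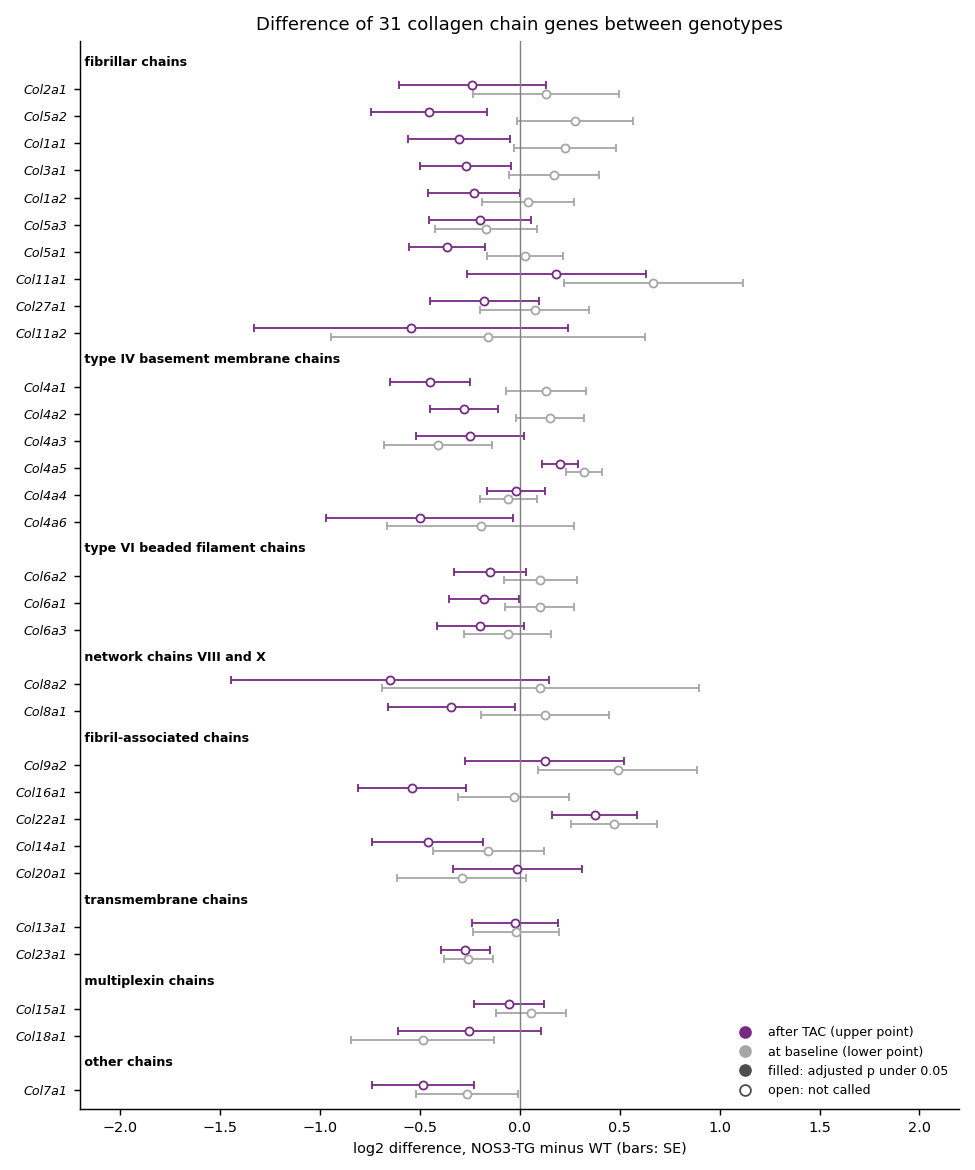
Log2 difference of NOS3-TG minus WT for the 31 tested collagen chain genes, by class, after TAC (upper point) and at baseline (lower point). Bars are standard errors of the limma fit with 4 arrays per group. All points are open, since none passed an adjusted p under 0.05, and 27 of the 31 points after TAC lie left of 0. Of all 15667 genes, 8098 were above 0 after TAC.

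Whether the change with TAC differed between genotypes was tested as an interaction, the TAC difference in NOS3-TG hearts minus that in WT hearts. No member was called by limma and 0 had an unadjusted p under 0.05. Of all 15667 genes, 0% were called and 1167 had an unadjusted p under 0.05. The median over the members was -0.28, with 27 of 31 below 0, and that over all genes was 0.07, with 9601 of 15667 above 0. The smallest p-values belonged to Col4a1 at -0.58 (interval -1.19 to 0.03, adjusted p = 0.684), Col4a2 at -0.43 (interval -0.95 to 0.09, adjusted p = 0.706) and Col5a2 at -0.73 (interval -1.62 to 0.16, adjusted p = 0.706). Col1a1 had -0.53 (interval -1.31 to 0.25), Col1a2 -0.27 (interval -0.97 to 0.43), Col3a1 -0.44 (interval -1.13 to 0.25) and Col8a1 -0.47 (interval -1.44 to 0.50). Lox had -1.59 (adjusted p = 0.663), Postn -0.78 (adjusted p = 0.786) and Serpinh1 -0.06 (adjusted p = 0.933). Without WT TAC replicate 4 the interaction was -0.32 for Col1a1, -0.06 for Col1a2, -0.15 for Col3a1, -0.12 for Col8a1, -0.31 for Col4a1, -0.23 for Col4a2 and -0.41 for Col5a2. The macrophage markers had a median interaction of -0.50, with 0 of 12 above 0 and none called, and the fibroblast markers one of -0.33. The medians were -0.07 for endothelial, 0.02 for mural cell, 0.07 for cardiomyocyte and -0.93 for cartilage markers. The part of these cell types in the chains' values was not tested. A chain called in 1 genotype and not in the other was not shown to respond differently.

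Females and males were compared over all 4 groups, a difference that cannot be told apart from position on the slide. 2 members were lower in females and none higher, beside 1.33% of all genes, 0.721% lower and 0.606% higher. An unadjusted p under 0.05 was found for 9 members and for 2496 of all 15667 genes. The median of the members was -0.25 and that of all genes 0.01. Col5a3, a type V chain, was lower in females by a log2 difference of -0.84 (SE 0.18, adjusted p = 0.0409), with the female mean under the male mean in 4 of 4 groups. In NOS3-TG TAC hearts females had 1.58 and 1.32 against 2.20 and 2.61 in males, and in WT baseline hearts 0.74 and 0.54 against 2.21 and 1.80. The exception among animals was WT TAC replicate 4, a female, which at 2.54 exceeded the WT TAC males at 2.40 and 2.06. Another Col5a3 probe, above background on 4 arrays, differed by 0.023 between females and males. Col22a1 differed by -0.70 (SE 0.15, adjusted p = 0.0421), also with lower female means in 4 of 4 groups. Col3a1 differed by -0.61 (adjusted p = 0.0807), Col1a1 by -0.45 (adjusted p = 0.234), Col1a2 by -0.26, Col4a1 by -0.40, Col4a2 by -0.25 and Col8a1 by -0.31, none of which passed the test.

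Both calls depended on single arrays. Leaving out any 1 array gave between 0 and 7 called members, Col5a3 was lost under 12 of the 16 omissions and Col22a1 under 13, and each omission except that of NOS3-TG baseline replicate 3 changed the count by more than 1.5 times, with 7 called without WT TAC replicate 4. Lox differed by -1.19 (adjusted p = 0.0948), Postn by -0.61 (adjusted p = 0.423) and Serpinh1 by 0.17 (adjusted p = 0.294) between females and males. The difference of the TAC change between the sexes, and that of the genotype difference, called none of the members and 0% of 15666 genes in limma. The smallest unadjusted p in the first was 0.00998 for Col13a1, at -0.73 (adjusted p = 0.308), and 3 members were under 0.05.

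**Figure D5:**
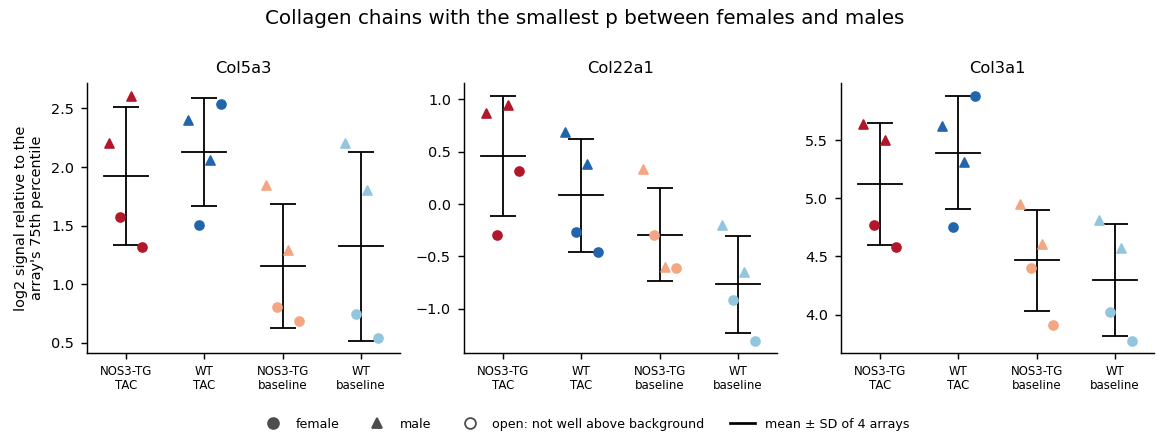
Log2 signal relative to the 75th percentile of the array for Col5a3, Col22a1 and Col3a1, the 3 members with the smallest p between females and males, on each array by group. Circles are females and triangles are males, and lines with bars are the mean ± SD of the 4 arrays of a group. Female circles lie below male triangles in most groups. A WT TAC female exceeds both males for Col5a3 and Col3a1. For Col22a1, NOS3-TG baseline female replicate 2 (-0.29) lies above male replicate 3 (-0.60).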

How the data were processed

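Left ventricular RNA of 16 mice was labelled with Cy3 and hybridised to 1-colour Agilent mouse arrays. The submitters' processing notes name Agilent Feature Extraction 9.5.1.1, and its scanner intensity values were deposited with a background-corrected processed signal and flags for each spot. A second table deposited by the authors holds log2 values of 22057 probes and followed the log2 processed signal (lowest correlation 0.99959 per array), with column medians of 9.95 to 9.99. It was used as an alternative, and its scaling and centring steps are not given in the sources used here.

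Here, control spots and spots marked as outliers were left out, spots of a probe were averaged, and each log2 processed signal was expressed relative to the 75th percentile of its array (1053 to 1491 intensity units). Probes well above background on at least 4 of 16 arrays were kept (23066 of 41174), and each of 15667 genes was read from its brightest probe by mean. Levels of different probes were not compared. Probe names were updated through RefSeq by accession (22951 probes) or symbol (9768), and 8455 kept the deposited name.

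A limma 3.58.1 model (R 4.3.3) held the 4 group means and sex, and its moderated two-sided test was adjusted by Benjamini-Hochberg over all genes in each comparison, with calls at an adjusted p under 0.05. The median standard error of a difference between groups was 0.13. Intervals are 95% intervals from the same fit and are not adjusted. The fit was tested on simulated data for TAC against baseline in WT hearts, with 200 of 15667 genes changed. It called 36% of the changes of 0.5 log2 units, 74% of those of 1 and 88% of those of 1.5 and of 2, with 4 false calls. These shares do not carry over to the real comparison, where 28.5% of all genes were called and the adjustment was less strict. The simulated noise was normal and independent between arrays, with no slide effect. Where no array of a group was above background, a fold is given as a bound, from the mean of the brighter group over the dim group's values raised to the lowest signal above background on each array. Precision is limited by the number of arrays.

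The members and all lists were chosen with earlier results of these data known, and no list received a test of its own. Named with values were all members called in any comparison, Col1a1, Col1a2, Col3a1, Col4a1, Col4a2 and Col8a1 throughout, the 3 smallest p-values where under 3 members were called, up to 4 called genes of each other list by size, and Lox, Postn and Serpinh1. Remaining members are given by value or range, and the second probes were described after their values were seen. The processing alternatives covered normalization, background correction, filters, choice of probe, weights, covariates, slide, scan day and the omission of arrays.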

Additional observations from a re-analysis of the deposited data

Results flagged for a closer look

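For 8 of 123 sets of 4 animals, 1 array stood far from the other 3 by Dixon's test, and chance alone marks about 1 in 20 such sets. NOS3-TG baseline replicate 3 was the low array in 5 of them. It read -5.07 for Col11a2 against -1.79 to -1.40 in the other NOS3-TG baseline hearts, -4.08 for Col27a1 against -3.33 to -3.22, -1.96 for Col4a6 against -0.44 to -0.14, -3.76 for Col7a1 against -3.05 to -2.92, and -3.89 for Col8a2 against -1.05 to -0.53. None of these 5 chains was called in any comparison.

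In the other 3 sets, NOS3-TG TAC replicate 4 read -3.48 for Col23a1 against -2.95 to -2.88, NOS3-TG TAC replicate 2 read -2.69 for Col4a3 against -2.44 to -2.41, and WT TAC replicate 4 read 2.12 for Col15a1 against 1.39 to 1.48.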

How the results depend on the processing

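After TAC in NOS3-TG hearts, 4 in place of 10 members were called with no filter on dim probes (2.72% of 27671 genes and 40 members tested, against 11.8% of 15667), 5 with normexp background correction (6.57%), 3 with scan day as a block (4.83%), and 0 without the 3 arrays of extreme share above background (2.56%), a setting chosen after seeing the data that leaves out only NOS3-TG arrays. Leaving out each array in turn gave 4 to 15 called members there, with Col23a1, Col2a1, Col4a1 and Col8a1 called under all 16 omissions. In WT hearts 12 in place of 19 members were called with scan day as a block (17.2% of all genes), and omissions gave 13 to 22. In both genotypes the scan day term leaves the TAC level resting on slide 2, since slide 3 held only TAC arrays. Between females and males, 5 in place of 2 members were called with array weights (4.13% of all genes, against 1.33%), 1 with the mean of all kept probes (1.19%), 0 with no filter (0.116%), 0 with normexp (0.268%) and 0 without the 3 extreme arrays (0.153%), and omissions gave 0 to 7. Counts for NOS3-TG against WT after TAC, at baseline and for the interaction were 0 under all settings run. Quantile normalization, the authors' deposited values, slide as a block, an intensity trend and no sex term changed no count by more than 1.5 times.

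Of 1872 gene values recomputed, 1679 kept direction and side of the threshold, 168 lost the call, 14 gained one and 11 changed sign. This total includes results that were never called, which could lose no call. Among the recomputed values of called results, 740 kept the call, 168 lost it and 2 changed sign. The sign changed with another probe for Col3a1 after TAC in NOS3-TG hearts (-0.40), Col2a1 after TAC in WT hearts (-0.18), and Col3a1 (0.18) and Col5a3 (0.023) between females and males. For NOS3-TG against WT after TAC, omissions gave -0.41 to 0.019 for Col3a1 and -0.60 to 0.0058 for Col8a1, both highest values without WT TAC replicate 4. For Col1a2 at baseline, omissions gave -0.083 to 0.21, below 0 without NOS3-TG baseline replicate 1 or 2 or WT baseline replicate 3 or 4, and the value was -0.080 without the 3 extreme arrays. The cause was not tested. The labels give no replicate numbers shared between groups, so numbers pair no samples. Every slide held 1 NOS3-TG and 1 WT animal of each sex, and with slide as a fixed block, 0 members were called for NOS3-TG against WT after TAC (5 at an unadjusted p under 0.05) and at baseline (2). TAC and slide cannot be told apart, and dim probes such as those of Col20a1 and Col4a3 are limited by signal over background.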
